A study of Mus musculus with 12 samples.

Results

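Messenger RNA was sequenced from micro-dissected palatal shelves of mouse embryos, and the libraries described here are the 8 of 12 whose column names carry the higher-numbered of 2 prefixes. They comprise 4 homozygous Pax9 mutants (Pax9-/-) and 4 controls (3 Pax9+/- and 1 Pax9+/+). All embryos were of the C57BL/6 strain and labelled embryonic day 14. The sample titles hold a number, here the title number. The first marks 2 untreated mutants and 2 untreated heterozygous controls. The second marks 2 mutants and 2 controls (1 heterozygous, 1 wild-type) whose Pax9+/- mothers received WAY-262611 by tail-vein injection each day from E10.5 to E14. WAY-262611 is a small molecule that opposes the secreted Wnt antagonist Dkk1. The question addressed is which transcripts differ between mutant and control shelves when treatment and title number are held fixed. What the prefix and the title number stand for, and the nature of the mutant allele, are not given in the labels. The labels give each library its own embryo number and do not say how litters were drawn, so p-values measure the spread between these embryos. The 4 libraries outside this set carry other title numbers, with 1 mutant and 1 wild-type control each.

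The secondary palate forms from shelves of neural crest mesenchyme covered by oral epithelium, and the upper molar tooth germs develop at their edge. Pax9 is a paired-domain transcription factor made in the mesenchyme of both organs. Mice without it have a cleft palate and teeth that stop developing at the bud stage. In the tooth germ the epithelium sends Shh, FGF, Wnt and BMP signals, and mesenchymal Msx1 and Pax9 sustain Bmp4, which signals back to the epithelium.

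Values are FPKM, reads scaled to gene length and library depth, as deposited, and differences are on the log2(FPKM + 0.5) scale with their standard error (SE). That scale understates the change of genes with low values. Recovered depth was 37.1 to 46.5 M reads per library. The palatal shelf factors Shox2 (38.9 to 45.8 FPKM) and Meox2 (12.3 to 16.8) were present in all 8 libraries. On the first principal component (38.8% of the variance) WAY control 2 stood apart, at 29.5 against -15.1 to 10.4 for the other libraries. Xist, the RNA of the inactive X chromosome, was at 96.6 FPKM in untreated mutant 2 and at 105.5 and 119.5 in the untreated controls, and at 0.0317 or less in the other 5 libraries. The Y-linked gene Ddx3y was at 12.5 to 19.0 FPKM in those 5 and at 0.00533 or less in the first 3. Embryo sex thus moves in part with genotype among the untreated embryos, and fully with treatment among the controls. Its part in the results below was not tested beyond the alternative fit quoted with them.

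Pax9 itself (chromosome 12, 56691767 to 56712822, mm10, plus strand) followed the genotype labels. The mutants had 5.47 and 4.75 FPKM without treatment and 6.13 and 5.69 with it. The controls had 21.1 and 20.3 without treatment, 22.8 in the treated heterozygote and 30.0 in the treated wild-type embryo. No mutant reached any control. The difference was -1.99 ± 0.09 (SE, n = 4 against 4, adjusted p = 2.92e-05). Reads over a targeted gene do not show which exons remain, so the residual level is given as a value only. Of the other Pax genes tested, Pax1 (1.22 ± 0.14 FPKM in mutants and 1.61 ± 0.29 in controls, SD, n = 4 each, adjusted p = 0.29) and Pax3 (2.35 ± 0.26 and 2.36 ± 0.31, adjusted p = 0.983) did not pass.

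In the mutant shelves 359 of 13868 genes tested passed an adjusted p of 0.05 (2.59% of all tested), with 126 higher (0.909%) and 233 lower (1.68%) than in controls. Among all genes tested, 1602 had no overlap between the 4 mutants and the 4 controls (11.6%), and 350 of the 359 were among them. The 15 largest falls included Sp6, Ascl5, Shh, Odam and Foxi3, which are known from the dental epithelium. The 15 largest rises included the BMP-family ligand Gdf7, the mesenchymal transcription factors Osr2 and Tbx15, and the synaptic organizer Cbln4. The count rests on single libraries: leaving out 1 at a time gave 130 (without WAY mutant 3) to 379 (without WAY control 2), and 136, 145, 164, 199, 225 and 230 without untreated control 3, untreated mutant 2, WAY mutant 2, WAY control 3, untreated mutant 3 and untreated control 2. With the Ddx3y level as a covariate 184 passed, 175 of them among the 359.

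Genes of the dental epithelium were among the largest falls. Sp6, a zinc-finger factor that mice need for ameloblasts and normal tooth number, had 0.516 and 0.615 FPKM in untreated mutants and 0.689 and 0.654 in treated ones. Its controls had 5.74 and 6.08 without treatment and 7.37 and 7.87 with it. The 2 genotypes stood far apart, and mutants lay close to each other (difference -2.69 ± 0.07, adjusted p = 2.07e-06). Ascl5, a basic helix-loop-helix factor of the dental epithelium, had 0.376, 0.401, 0.330 and 0.754 FPKM in the mutants. It had 3.36, 3.28, 4.05 and 4.32 in the controls (-2.15 ± 0.12, adjusted p = 0.000105). These mutant levels rested on 7 to 17 reads per library, against 73 to 98 in controls. Shh (chromosome 5, 28456815 to 28467256, minus strand), the ligand made by the oral and dental epithelium, had 4.02, 3.39, 3.51 and 3.03 FPKM in mutants. The controls had 9.25, 9.85, 9.04 and 8.38 (-1.27 ± 0.07, adjusted p = 8.25e-05). Every mutant lay below every control for all of these genes, in both title numbers. No overlap was a condition for naming genes among the largest falls, so this separation is not a result of its own. In bulk tissue, fewer cells of a type and less RNA per cell cannot be told apart.

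Odam, an ameloblast-associated secreted protein, was nearly unread in mutants, with 1 or 2 reads per library against 71 to 132 in controls. Its levels were 0.0155, 0.033, 0.0388 and 0.0183 FPKM in mutants and 2.37, 2.09, 1.33 and 1.52 in controls. The log2 difference of -2.12 ± 0.13 (adjusted p = 0.000141) is set by the pseudocount at such levels. Foxi3, a forkhead factor of the dental and hair placode epithelium, fell from 3.51 ± 0.74 to 0.785 ± 0.15 FPKM (SD, n = 4 each), a difference of -1.63 ± 0.14 (adjusted p = 0.000825). Krt17, a keratin of periderm and placodes, was the most abundant of the markers that fell. Its mutants lay at 173.7 to 187.6 FPKM and its controls at 262.8 to 390.5 (-0.74 ± 0.10, adjusted p = 0.00933).

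Over the list of dental epithelium markers, 10 of 15 members tested fell and 1 rose, with a median difference of -0.49 against -0.026 over all genes tested. Those that fell included Sp6, Ascl5, Foxi3, Shh, Krt17, Irx1, Dlx2, Wnt10a and Wnt10b. Bmp2, a BMP ligand of the enamel knot, rose, from 8.84 ± 0.36 to 11.6 ± 0.20 FPKM (0.37 ± 0.05, adjusted p = 0.00632). Edar (-0.40, adjusted p = 0.0608), the enamel matrix gene Ambn (-0.30, adjusted p = 0.29), Dlx3 (0.01) and Fgf9 (0.14) did not pass. The tooth germ markers therefore did not all move together. Ambn stood at 4.88 to 6.49 FPKM in mutants and 5.75 to 7.96 in controls, overlapping. Odam did not overlap, but that was a condition for naming it, so the 2 are not set against each other. With the Ddx3y level as a covariate 8 of the 15 fell, and without WAY control 2 the count was 10.

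Cyp26c1, which breaks down retinoic acid, was among the largest falls, whose order changes with the pseudocount. Its mutants had 0.561, 0.560, 0.550 and 0.360 FPKM and its controls 5.14, 5.72, 5.58 and 7.97 (-2.70 ± 0.14, adjusted p = 5.03e-05). Its neighbour Cyp26a1, which acts on the same substrate, fell less, from 8.12 ± 0.92 to 5.16 ± 0.80 FPKM (-0.61 ± 0.10, adjusted p = 0.021). The third enzyme, Cyp26b1, was at 23.6 ± 0.38 in mutants and 23.3 ± 1.1 in controls (adjusted p = 0.839). Rdh10, which makes the precursor retinaldehyde, rose from 8.63 ± 1.2 to 13.0 ± 1.2 FPKM (0.57 ± 0.06, adjusted p = 0.00218). Of 19 genes of the retinoic acid pathway these 3 passed, 2 lower and 1 higher.

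To show the sequence around the starts of genes that fell together, RefSeq windows (GRCm38.p6) from 250 bases before to 50 after a start were read. They were scanned on both strands for a homeobox motif of the Msx and Dlx type (TAATTG), an AP-2 motif (GCCNNNGGC), an ETS motif (CCGGAAGT) and a TCF/LEF motif (CTTTGAT). None of these contains another. A window was given for 9 of the 15 genes with the largest falls and for 8 of the 15 with the largest rises. TAATTG lay in the windows of 3 of the 9 (Cyp26c1, Odam and Tfap2b) and in 0 of the 8, and 8.01% of 32544 mouse windows hold it. The AP-2 letters lay in 2 of the 9 and 2 of the 8 (16.7% of all), and the ETS and TCF/LEF letters in none (3.92% and 3.73% of all). The 3 windows with the homeobox letters, which stand in capitals on whichever strand they matched, and that of Ascl5, in which none of the 4 motifs was found, are as follows. A match describes these letters and is not evidence of binding.
Cyp26c1 (chr19:37685430-37685729, plus strand): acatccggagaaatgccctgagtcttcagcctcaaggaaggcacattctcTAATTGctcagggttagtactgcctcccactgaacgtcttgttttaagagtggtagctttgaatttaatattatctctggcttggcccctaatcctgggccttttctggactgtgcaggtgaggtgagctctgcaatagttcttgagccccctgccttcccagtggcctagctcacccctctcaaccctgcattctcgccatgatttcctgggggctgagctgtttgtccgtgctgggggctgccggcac
Odam (chr5:87884760-87885059, plus strand): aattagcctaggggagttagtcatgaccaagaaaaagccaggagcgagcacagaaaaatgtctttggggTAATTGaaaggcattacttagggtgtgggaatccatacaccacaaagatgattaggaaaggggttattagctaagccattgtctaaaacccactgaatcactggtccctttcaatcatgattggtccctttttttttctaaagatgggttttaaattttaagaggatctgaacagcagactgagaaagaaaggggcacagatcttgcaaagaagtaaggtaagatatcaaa
Tfap2b (chr1:19211804-19212103, plus strand): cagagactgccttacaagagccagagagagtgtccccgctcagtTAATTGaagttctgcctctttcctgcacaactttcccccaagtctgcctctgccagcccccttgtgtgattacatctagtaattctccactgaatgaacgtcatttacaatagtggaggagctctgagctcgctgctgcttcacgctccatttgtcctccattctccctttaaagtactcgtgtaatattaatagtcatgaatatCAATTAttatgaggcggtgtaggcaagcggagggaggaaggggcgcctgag
Ascl5 (chr1:136050554-136050853, plus strand): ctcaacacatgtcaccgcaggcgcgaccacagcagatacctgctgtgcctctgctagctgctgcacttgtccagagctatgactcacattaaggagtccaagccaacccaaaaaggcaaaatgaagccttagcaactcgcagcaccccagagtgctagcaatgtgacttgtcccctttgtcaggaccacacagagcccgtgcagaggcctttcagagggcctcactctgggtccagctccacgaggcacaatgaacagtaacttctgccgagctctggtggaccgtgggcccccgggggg

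**Figure D1:**
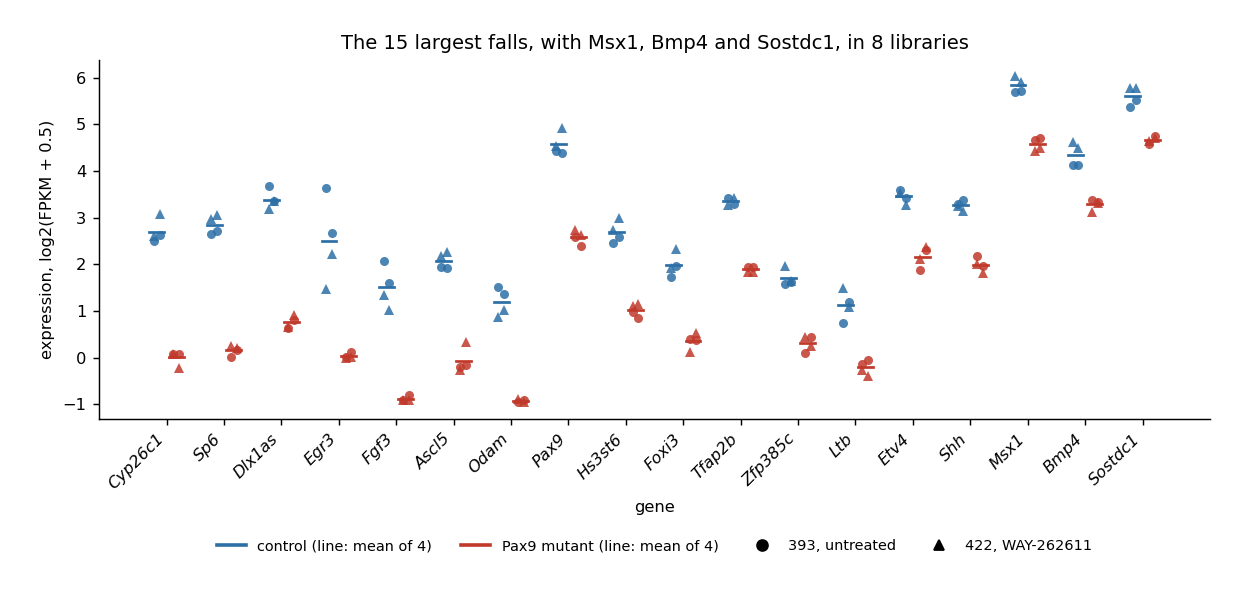
Expression on the log2(FPKM + 0.5) scale of the 15 genes with the largest falls and of Msx1, Bmp4 and Sostdc1 in 4 control (blue) and 4 Pax9 mutant (red) libraries, where circles mark untreated embryos, triangles WAY-262611 embryos and lines the mean of 4. The 15 were chosen for no overlap between genotypes, which Msx1, Bmp4 and Sostdc1 show as well, and Egr3 controls spread the most, from 2.28 to 11.9 FPKM.

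Msx1, Bmp4 and Sostdc1, which are made in the developing tooth, fell as well. Msx1 (chromosome 5, 37820485 to 37824583, minus strand), a homeobox factor that acts with Pax9 in dental mesenchyme, had 24.9, 25.7, 21.1 and 22.1 FPKM in mutants. Its controls had 51.7 and 52.4 without treatment and 65.2 and 59.3 with it (-1.27 ± 0.09, adjusted p = 0.000445). Bmp4, its target in dental mesenchyme, fell from 20.1 ± 3.6 to 9.32 ± 0.76 FPKM (-1.05 ± 0.11, adjusted p = 0.0028). Sostdc1, an extracellular inhibitor in the BMP and Wnt pathways, fell from 49.0 ± 6.9 to 25.0 ± 1.2 FPKM (-0.95 ± 0.08, adjusted p = 0.000756). For all 3 genes the treated controls stood above the untreated ones. Among controls, treatment, title number and embryo sex cannot be told apart. The treated Msx1 mutants stood below the untreated ones, and the difference between the 2 genotype effects did not pass for any gene, as described with the title numbers.

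Fgf3, an FGF of dental mesenchyme and enamel knot, was barely read in mutants. They had 3 to 8 reads per library and 0.0367, 0.0782, 0.0345 and 0.0324 FPKM. Controls had 142 to 351 reads and 3.73, 2.52, 2.04 and 1.52 FPKM (-2.38 ± 0.17, adjusted p = 0.000335, set by the pseudocount). Of 14 dental mesenchyme markers 5 fell (Fgf3, Msx1, Bmp4, Sostdc1, Dlx2) and 1 rose, the matrix glycoprotein gene Tnc (0.46, adjusted p = 0.00293). The homeobox genes Lhx6, Lhx8 and Barx1, which mark the dental and jaw mesenchyme, did not pass, with differences of 0.21 (adjusted p = 0.215), 0.11 (adjusted p = 0.522) and 0.13 (adjusted p = 0.421).

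Some FGF response genes fell as well. Dusp6, a phosphatase that feeds back on ERK signalling, had 24.4, 25.5, 21.3 and 21.7 FPKM in mutants and 45.4, 40.4, 34.7 and 34.5 in controls (-0.72 ± 0.05, adjusted p = 0.000335). The ETS factor Etv4 fell from 10.6 ± 1.0 to 4.03 ± 0.67 FPKM (-1.29 ± 0.12, adjusted p = 0.00129) and Etv5 from 7.76 ± 0.81 to 5.50 ± 0.40 (-0.46 ± 0.08, adjusted p = 0.0291). The other 7 of 10 response genes did not pass, among them Spry2 (-0.07, adjusted p = 0.603) and Spry4 (-0.07, adjusted p = 0.821). Among the ligands, Fgf18 fell (-0.29, adjusted p = 0.042), Fgf12 rose (0.33, adjusted p = 0.0371) and the mesenchymal Fgf10 did not pass (-0.21, adjusted p = 0.337). With the Ddx3y covariate Etv5, Fgf18 and Fgf12 did not pass. None of 5 FGF receptors passed in limma, and their median difference was 0.06.

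Hedgehog genes beyond the ligand were split: of 11 Shh response genes tested 2 fell, and 1, Osr2, rose. Foxf1, a forkhead factor of the palatal mesenchyme induced by Shh, fell from 35.8 ± 2.8 to 26.3 ± 0.85 FPKM (-0.43 ± 0.06, adjusted p = 0.00629). Gli1, the usual readout of the pathway, had 38.4 to 42.1 FPKM in mutants and 45.7 to 60.9 in controls without overlap, yet did not pass (-0.31 ± 0.08, adjusted p = 0.102). Without WAY control 2, 4 of the 11 fell, Gli1 among them. Ptch1 was at 25.7 FPKM in WAY control 2 and at 40.8 to 53.4 in the other 7 libraries. It did not pass (adjusted p = 0.997), and WAY control 2 is the library that stood apart.

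BMP ligands moved in opposite directions. Of 11 tested, 5 rose and only Bmp4 fell. Gdf7 had 2.91, 2.94, 2.30 and 3.27 FPKM in mutants and 1.55, 1.36, 0.330 and 0.798 in controls, the lowest being WAY control 2 (1.23 ± 0.21, adjusted p = 0.0216). Bmp3 rose from 8.91 ± 1.5 to 13.0 ± 0.58 FPKM (0.53, adjusted p = 0.0248), Bmp5 by 0.35 (adjusted p = 0.0229) and Bmp6 by 0.25 (adjusted p = 0.0145). With the Ddx3y level as a covariate 2 of these 5 passed. Among 13 antagonists Sostdc1 and Grem1 (-0.60, adjusted p = 0.0173) fell. None of 7 BMP receptors passed in limma. Of 10 response genes, Id4 fell (-0.55, adjusted p = 0.00303) with Msx1, while Id2 rose (0.25, adjusted p = 0.0449) and Msx2, the close relative of Msx1, did not pass (7.43 ± 0.91 and 7.97 ± 0.60 FPKM, adjusted p = 0.599). Grem1 and Id2 did not pass with the Ddx3y covariate.

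Wnt genes showed small differences. Of 13 ligands 4 fell: the epithelial Wnt10a (-0.49 ± 0.06, adjusted p = 0.00352) and Wnt10b (-0.27 ± 0.05, adjusted p = 0.0371), Wnt16 (-0.59 ± 0.12, adjusted p = 0.0485) and the mesenchymal Wnt5a (-0.28 ± 0.06, adjusted p = 0.0412). With median-ratio scaling, or with the Ddx3y covariate, 1 of the 13 passed. The antagonist Dkk2 rose from 20.1 ± 2.2 to 31.0 ± 0.54 FPKM (0.62 ± 0.07, adjusted p = 0.0028). Dkk1, the target of WAY-262611, had 11.9 to 16.1 FPKM in mutants and 8.60 to 12.1 in controls (adjusted p = 0.286). Among 14 response genes Lef1 (-0.68 ± 0.08, adjusted p = 0.00419) and Sp5 (-0.69 ± 0.13, adjusted p = 0.0371) fell and Lgr5 rose (0.52 ± 0.08, adjusted p = 0.016), and Sp5 did not pass with the Ddx3y covariate or without WAY control 2. Axin2, the standard feedback target, was at 13.7 ± 1.1 FPKM in mutants and 14.0 ± 0.38 in controls (adjusted p = 0.826).

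Of 3 AP-2 factors tested, 2 fell. Tfap2b (chromosome 1, 19208914 to 19238576, plus strand), an AP-2 factor of the facial mesenchyme, had 3.37, 3.37, 3.05 and 3.10 FPKM in mutants and 10.3, 9.35, 9.15 and 10.2 in controls (-1.46 ± 0.06, adjusted p = 1.89e-05). Tfap2c fell from 7.48 ± 0.60 to 3.93 ± 0.15 FPKM (-0.85 ± 0.06, adjusted p = 0.000445). Tfap2a had -0.39 ± 0.09 and did not pass (adjusted p = 0.0645). Hs3st6, an enzyme that sulfates heparan sulfate chains, fell from 6.02 ± 1.1 to 1.54 ± 0.19 FPKM (-1.67 ± 0.08, adjusted p = 3.6e-05). After subtracting title-number means, Hs3st6 had the highest Pearson r with Pax9 over the 8 libraries (0.998), followed by the ephrin receptor gene Epha2 (0.997), Tfap2b (0.997), Cyp26c1 (0.997) and the adenylyl cyclase gene Adcy8 (0.996). These values describe genes that separate the genotypes as evenly as Pax9 does, and all 8 points share their genotype split.

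The other genes among the 15 largest falls were Egr3, Ltb, Zfp385c and Dlx1as. Egr3, an immediate early zinc-finger factor, had 0.491 to 0.594 FPKM in mutants and 11.9, 5.85, 2.28 and 4.16 in controls (-2.46 ± 0.31, adjusted p = 0.00589). Its fellows Egr1 (-0.06, adjusted p = 0.902) and Fos (0.01, adjusted p = 0.978) did not pass, and Egr3 was the only 1 of 15 immediate early and heat shock genes that did. Ltb, a TNF-family ligand, fell from 1.73 ± 0.48 to 0.368 ± 0.087 FPKM (-1.34, adjusted p = 0.00532), and the zinc-finger gene Zfp385c from 2.78 ± 0.42 to 0.744 ± 0.13 (-1.40, adjusted p = 0.000552). Dlx1as, antisense to the homeobox gene Dlx1, had 1.19 ± 0.15 FPKM in mutants and 10.1 ± 1.6 in controls (-2.64, adjusted p = 1.89e-05), while Dlx1 had 15.3 ± 0.62 and 13.8 ± 1.3 (adjusted p = 0.347). Whether counting used strand is not given in the sources used here, so reads from this overlapping pair cannot be told apart with certainty.

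Among transcription factors of the facial mesenchyme, Osr2, Tbx15 and Alx4 rose. Osr2, a zinc-finger factor needed for shelf growth, had 138.7, 135.4, 124.9 and 129.1 FPKM in mutants and 71.6, 68.0, 90.9 and 52.8 in controls (0.92 ± 0.14, adjusted p = 0.014). Tbx15, a T-box factor of craniofacial and limb mesenchyme, was the rise with the smallest spread. It had 31.0, 30.3, 29.6 and 29.5 FPKM in mutants and 17.2, 16.6, 14.9 and 15.1 in controls (0.90 ± 0.04, adjusted p = 3.6e-05). The homeobox gene Alx4 rose from 16.4 ± 1.6 to 22.4 ± 1.4 FPKM (0.44 ± 0.05, adjusted p = 0.0028). Tbx1, which is made in oral epithelium, fell (-0.57 ± 0.10, adjusted p = 0.0218). Osr1, the relative of Osr2, was at 29.8 ± 4.3 in mutants and 29.6 ± 1.3 in controls (adjusted p = 0.996), and the palatal T-box gene Tbx22 was at 3.75 ± 0.21 and 3.56 ± 0.41 (adjusted p = 0.668). Of 28 palatal and dental mesenchyme factors tested, 2 rose and 4 fell, and their median difference was 0.003. Without WAY control 2, 4 rose and 3 fell, and with the Ddx3y covariate 2 rose and 2 fell.

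Some genes best known from synapses and neuronal adhesion rose. Cbln4, a secreted synaptic organizer, had 1.68, 1.55, 1.51 and 1.72 FPKM in mutants and 0.520, 0.474, 0.320 and 0.396 in controls (1.19 ± 0.09, adjusted p = 0.000559). Of 35 synaptic and adhesion genes tested, 6 rose (Cbln4, Tenm1, Brinp3, Slitrk4, Lrrtm3, Pcdh10) and 2 fell, Lrrtm1 (-0.78 ± 0.06, adjusted p = 0.000552) and Cbln1 (-0.70 ± 0.08, adjusted p = 0.00299). The median over the 35 was 0.15. This list had been built after such rises were seen in these samples, so its count is not independent evidence of its direction. Over 15 neuron markers, the summed level was 66.7 to 175.4 FPKM in mutants and 88.6 to 179.8 in controls. Of the 12 tested, 1 passed, the neurofilament gene Nefm (1.21 ± 0.22, adjusted p = 0.0299). Nefm had 4.28, 8.38, 4.57 and 5.09 FPKM in mutants and 1.88, 1.59, 1.92 and 2.97 in controls, whereas the pan-neuronal tubulin gene Tubb3 ranged from 4.74 to 32.2 and from 15.7 to 37.7 (adjusted p = 0.29).

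Further rises were in the somatostatin receptor gene Sstr1 (1.05 ± 0.14, adjusted p = 0.00765), Aard (0.92 ± 0.07, adjusted p = 0.000445), the orphan receptor gene Gpr50 (0.91 ± 0.10, adjusted p = 0.00293) and the cation channel gene Trpc5 (0.88 ± 0.15, adjusted p = 0.0206). Aard mutants lay at 4.67 to 5.55 FPKM and its controls at 2.37 to 2.57. Loxl4, a collagen cross-linking oxidase, had 9.35 to 10.4 FPKM in mutants and 3.81 to 7.06 in controls (0.90 ± 0.17, adjusted p = 0.0321). The netrin receptor gene Unc5d (0.73 ± 0.15, adjusted p = 0.0412) and Zmat4 (0.74 ± 0.11, adjusted p = 0.0143) complete the 15. Gdf7, Loxl4, Nefm, Osr2, Trpc5, Unc5d and Zmat4 each missed the threshold when some single libraries were left out. Tenm1 missed it in 1 of 17 alternatives. The direction of each of these genes did not change in any alternative tried.

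**Figure D2:**
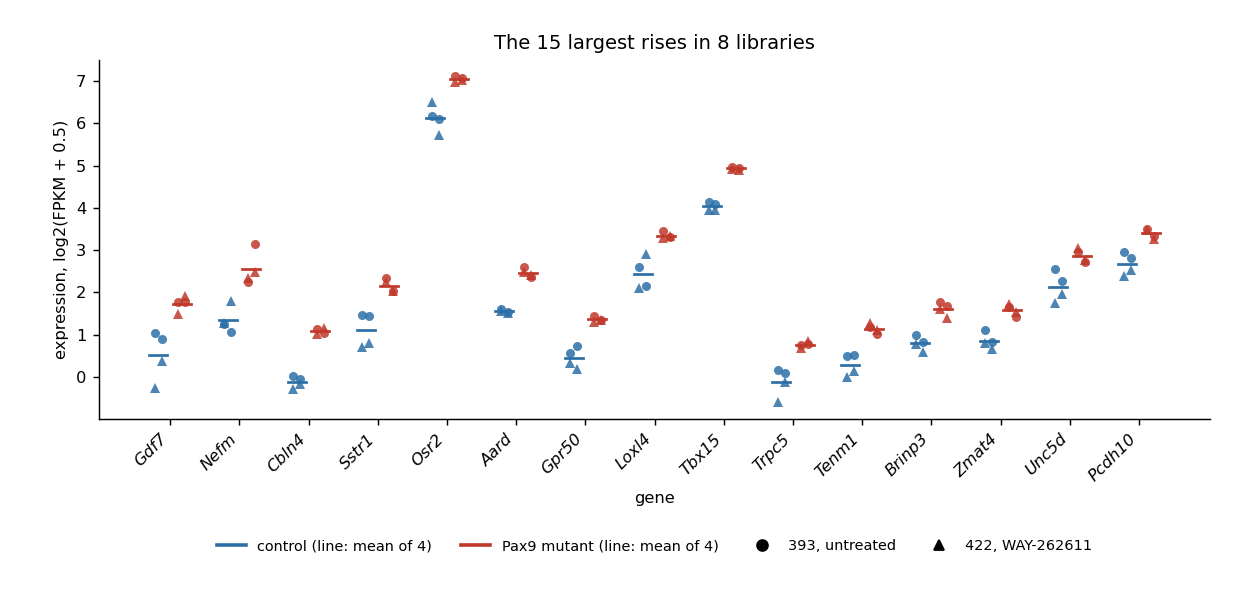
Expression on the log2(FPKM + 0.5) scale of the 15 genes with the largest rises, with controls in blue, Pax9 mutants in red, circles for untreated and triangles for WAY-262611 embryos and lines at the mean of 4. Mutant points lie above all control points for each gene because genes were chosen for no overlap, with Tbx15 and Aard the tightest and Gdf7, Nefm and Loxl4 more spread.

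Surface epithelium markers were measured beside the dental genes. Of 33 oral epithelium markers 8 fell and none rose, among them the adhesion molecule gene Epcam (47.8 ± 2.5 FPKM in mutants, 66.1 ± 6.6 in controls, -0.46, adjusted p = 0.0121) and the desmosomal gene Dsc3 (-0.88, adjusted p = 0.00185). The median over the 33 was -0.25, and 5 fell with the Ddx3y covariate. Only 3 of the 33 differences were above 0. In 16 members every mutant lay below every control, and in 1 every mutant lay above. Over all genes tested, 11.6% had no overlap in either direction. Their summed level was 1100 to 1206 FPKM in mutants and 1214 to 1550 in controls, the highest being WAY control 2. The basal keratin gene Krt14 (187 to 217.7 FPKM in mutants, 212.5 to 290.1 in controls, adjusted p = 0.262) did not pass. Nor did the epithelial cadherin gene Cdh1 (31.5 ± 2.9 and 37.9 ± 2.2, adjusted p = 0.112). No marker of this list was at 0. Of 11 periderm markers 4 fell, among them Krt17, Krt6a and Grhl3 (2 with the Ddx3y covariate, Grhl3 not among them), and the summed level was 313.3 to 334.5 FPKM in mutants and 427.9 to 575 in controls. The largest fall in the oral epithelium list was that of Dsc3. Sp6, Ascl5, Odam and Shh were taken from the largest falls that passed, so their sizes are not set against this list. The part of a smaller epithelial share in the dental falls was not tested.

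Skeletal markers moved the other way in part. Of 13 cartilage markers 3 rose, the transcription factor Sox9 (10.9 ± 0.42 to 13.7 ± 0.96 FPKM, 0.32, adjusted p = 0.032), the proteoglycan gene Acan (0.62, adjusted p = 0.0148) and Hapln1 (0.51, adjusted p = 0.00694). All 13 differences were above 0, with a median of 0.32. The main cartilage collagen Col2a1 did not pass (61.9 ± 7.9 and 46.5 ± 6.2 FPKM, adjusted p = 0.144). With the Ddx3y covariate 1 of the 13 passed. Of 13 osteoblast markers only Sp7 rose (66.7 ± 5.8 to 84.1 ± 2.7 FPKM, 0.34, adjusted p = 0.028), and with the Ddx3y covariate 0 of the 13 passed. The osteoblast sum was 3649 to 4283 FPKM in mutants and 2782 to 3459 in controls. In the other 4 libraries the median difference was -0.23 for cartilage and -0.13 for osteoblast markers, the opposite sign, and the difference between the 2 sets of libraries did not pass for any member.

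Several tissues that a dissection could carry along did not separate the genotypes. None of 22 skeletal muscle, 12 nasal, 16 macrophage, 9 erythroid or 8 Schwann and melanocyte markers passed in limma. Muscle sums ran from 248.5 to 544.5 FPKM in mutants and from 339.9 to 456.9 in controls. Erg, an endothelial factor, rose (0.33, adjusted p = 0.0273) as the only 1 of 16 endothelial markers, and none passed with the Ddx3y covariate. The pericyte gene Rgs5 rose (0.53, adjusted p = 0.0028) and the smooth muscle gene Tagln fell (-0.56, adjusted p = 0.0113).

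Notch targets and cell cycle genes were compared next. Hes1 (-0.40 ± 0.06, adjusted p = 0.0162), Lfng (-0.33 ± 0.06, adjusted p = 0.0375) and Nrarp (-0.32 ± 0.06, adjusted p = 0.0243), all induced by Notch, fell among 15 pathway genes. Lfng did not pass with the Ddx3y covariate. Of 36 cell cycle genes 2 passed, the mitotic genes Aurka (-0.23, adjusted p = 0.0454) and Cdc25c (-0.30, adjusted p = 0.0398). The count was 0 with the Ddx3y covariate, 1 with median-ratio scaling and 5 without WAY control 2, where Aurka did not pass. Only 2 of the 36 differences were above 0, with a median of -0.14 (n = 36 genes that share the same 8 libraries). The cell cycle inhibitor Cdkn2b fell as well, from 2.49 ± 0.40 to 0.889 ± 0.23 FPKM (-1.11 ± 0.14, adjusted p = 0.00609). The hyaluronan synthases split, with Has2 higher (20.6 ± 4.0 to 30.9 ± 2.9 FPKM, 0.59, adjusted p = 0.0229) and Has3 lower (4.08 ± 0.56 to 1.73 ± 0.13, -1.04, adjusted p = 0.00179). None of 18 TGF-beta pathway genes, and none of 7 ectodysplasin pathway genes, passed in limma.

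**Figure D3:**
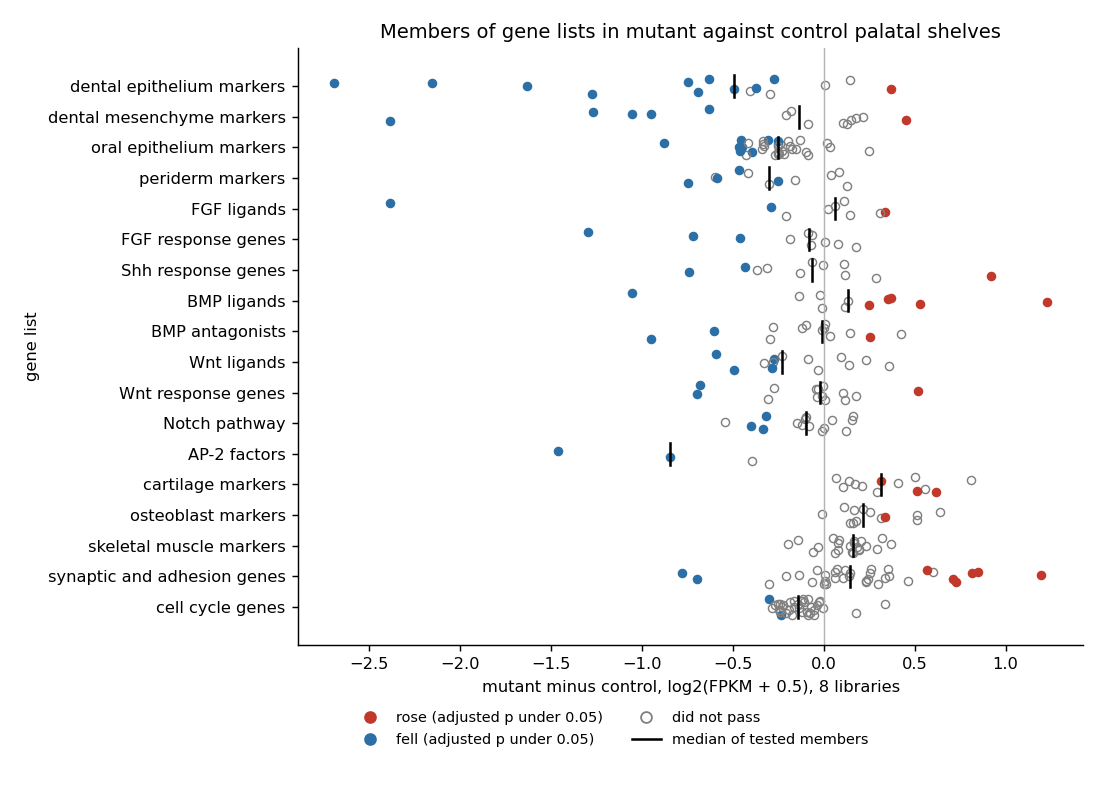
Difference between mutants and controls on the log2(FPKM + 0.5) scale for the tested members of 18 gene lists (rows), with filled points for members that rose (red) or fell (blue) at an adjusted p under 0.05 and bars for the list median. The point furthest to the left is a dental epithelium marker, Sp6. The median was -0.49 for dental epithelium markers and -0.85 for the 3 AP-2 factors. Cartilage markers lie wholly above 0 with a median of 0.32.

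Within each title number the comparison rests on 2 mutants and 2 controls with the spread pooled over the 8 libraries. In untreated embryos 53 genes passed (0.382% of all tested; 15 higher, 38 lower), and in treated embryos 295 passed (2.13%; 106 higher, 189 lower). Of these 43 passed in both, 81.1% of the first list and 14.6% of the second. The 5 largest untreated falls were Egr3 (-3.08), Dlx1as (-2.79), Fgf3 (-2.68), Sp6 (-2.59) and Cyp26c1 (-2.48), and the treated ones Cyp26c1 (-2.92), Sp6 (-2.79), Dlx1as (-2.48), Ascl5 (-2.20) and Fgf3 (-2.09). The untreated rises were Cbln4 (1.09), Aard (0.91), Tbx15 (0.84) and the collagen genes Col22a1 (0.88) and Col11a2 (0.84), of cartilage and tissue junctions. With treatment they were Gdf7 (1.65), Sstr1 (1.37), Cbln4 (1.30), Trpc5 (1.12) and Tenm1 (1.12).

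A larger count in treated embryos is not shown to be a larger effect. The test of the difference between the 2 title numbers called 0 of 13868 genes in limma (1456 had an unadjusted p under 0.05, and the fit on recovered reads also called 0). Cgref1, with the smallest p, had 27.5 and 26.3 FPKM in untreated mutants and 14.8 and 15.3 in untreated controls, and 23.5 and 25.7 against 26.9 and 24.7 with treatment. Its difference of effects was -0.88 (adjusted p = 0.474). Without WAY control 3 this test called 1713 genes and the comparison within treated embryos called 4522. The treated controls were then WAY control 2 alone, the library that stood apart, which was assumed to vary like the other groups. The cause of these counts was not tested, and without WAY control 2 or WAY mutant 2 the treated comparison called 153 and 18. Treatment and title number cannot be told apart in any of these values, nor can embryo sex among the controls.

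The other 4 libraries set mutants against wild-type controls only, in separate embryos, whereas 3 of the 4 controls in the 8 libraries were heterozygous. Of the 359 genes, 321 (89.4%) had the same sign there, against 73.5% of all genes tested; by direction it was 111 of the 126 that rose and 210 of the 233 that fell. Pax9 (-2.21), Tfap2b (-1.66), Msx1 (-1.46), Hs3st6 (-1.33), Bmp4 (-1.02) and Tbx15 (0.60) had adjusted p of 0.034 or less in those 4 libraries in the same fit. Several dental genes differed from these. Sp6 was at 0.657 and 0.459 FPKM in the mutants of the other 4 and at 0.724 and 0.604 in their controls, so that both genotypes there had the level of the mutants here. The difference of effects was -2.55 ± 0.13 (adjusted p = 9.3e-05).

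The test of that difference called 11 of 13868 genes (0.0793%), 10 with a lower and 1 with a higher difference in the 8 libraries. Shh stood at 5.60 and 5.20 FPKM in the other mutants and at 5.01 and 4.14 in their controls, between the mutant and control levels of the 8 libraries (difference of effects -1.50 ± 0.12, adjusted p = 0.00152). Cyp26c1 (-2.46 ± 0.24, adjusted p = 0.00653), Fgf3 (-2.26 ± 0.28, adjusted p = 0.0306), Odam (-1.61 ± 0.22, adjusted p = 0.0415) and Ascl5 (-1.53 ± 0.21, adjusted p = 0.0415) had low levels in the other controls too. Those were 1.56 and 1.45 FPKM for Cyp26c1, 0.133 and 0.160 for Fgf3, 0.262 and 0.191 for Odam and 1.59 and 1.08 for Ascl5. Dlx1as (-3.10 ± 0.21, adjusted p = 0.000658), Etv4 (-1.50 ± 0.19, adjusted p = 0.0397) and the basement membrane gene Vwa2 (-1.01 ± 0.13, adjusted p = 0.0415) completed the group, with Dusp6.

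Dusp6 differed from these in level. The other controls had 43.7 and 39.5 FPKM and the other mutants 44.1 and 38.2, within the range of the controls of the 8 libraries (-0.70 ± 0.08, adjusted p = 0.0186). Crtac1, the gene of cartilage acidic protein, was the 1 gene of opposite sign. It had 1.46 and 2.03 FPKM in the other mutants against 4.90 and 4.63 in their controls, and 5.38 to 6.14 against 4.64 to 5.67 here (1.42 ± 0.15, adjusted p = 0.0133). Leaving out 1 library at a time left 3 to 8 of these calls, with 3 without untreated mutant 1 or untreated control 1. The other 4 libraries differ from the 8 in title number and column prefix, and they hold no heterozygous control. Some marker sums differed as well. Osteoblast sums were 1024 to 1199 FPKM there, against 2782 to 4283 in the 8 libraries. Oral epithelium sums were 540.5 to 762.8 against 1100 to 1550, and muscle sums 299.9 to 1073 against 248.5 to 544.5. Sex-linked sums were 94.2 to 126.5 against 36.9 to 119.5. Cartilage sums overlapped (305.8 to 390 against 224 to 313.5). The part of each in these calls was not tested, and they cannot be told apart. Summed dental epithelium markers were 136.4 and 144.5 FPKM in the other mutants and 214.4 and 185.5 in their controls, and 248.4 to 267.8 against 366.3 to 510.9 in the 8 libraries.

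**Figure D4:**
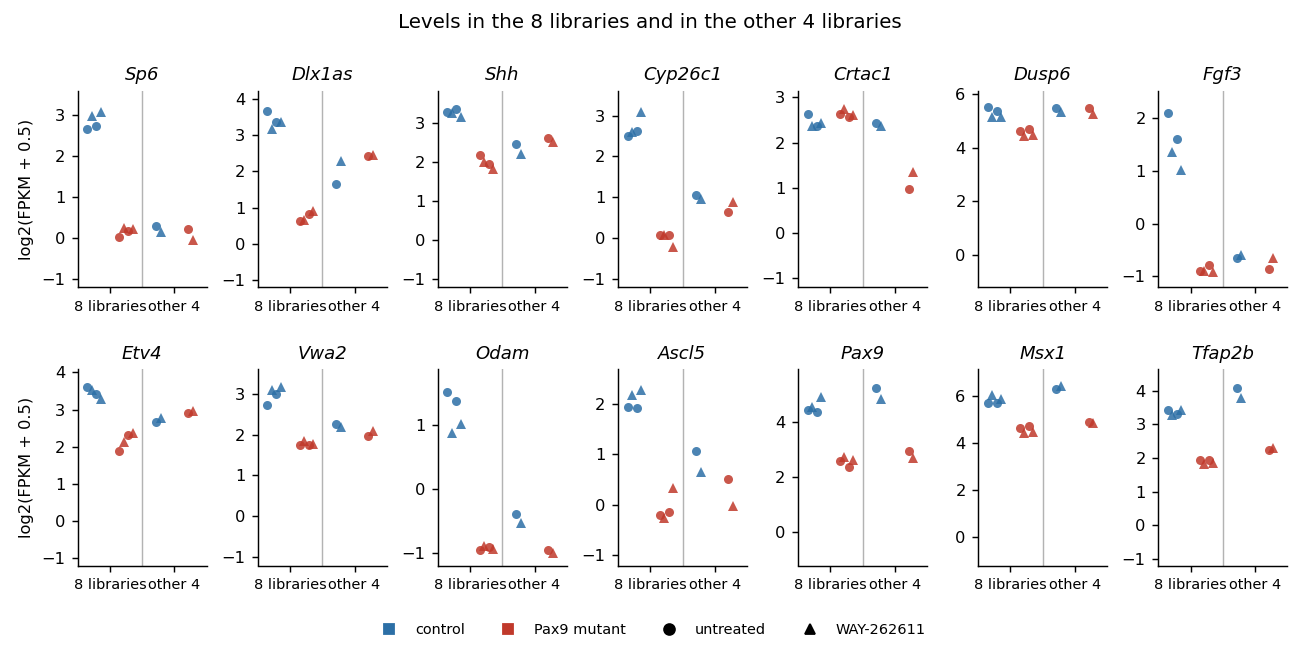
Levels on the log2(FPKM + 0.5) scale of the 11 genes whose genotype effect differed between the 8 libraries (left of each panel) and the other 4 (right), and of Pax9, Msx1 and Tfap2b, with controls in blue, mutants in red, circles for untreated and triangles for WAY-262611 embryos; each panel has its own axis. Controls of the other 4 libraries lie near the mutant level for Sp6 and Fgf3, while Pax9, Msx1 and Tfap2b separate the genotypes in both sets.

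**Figure D5:**
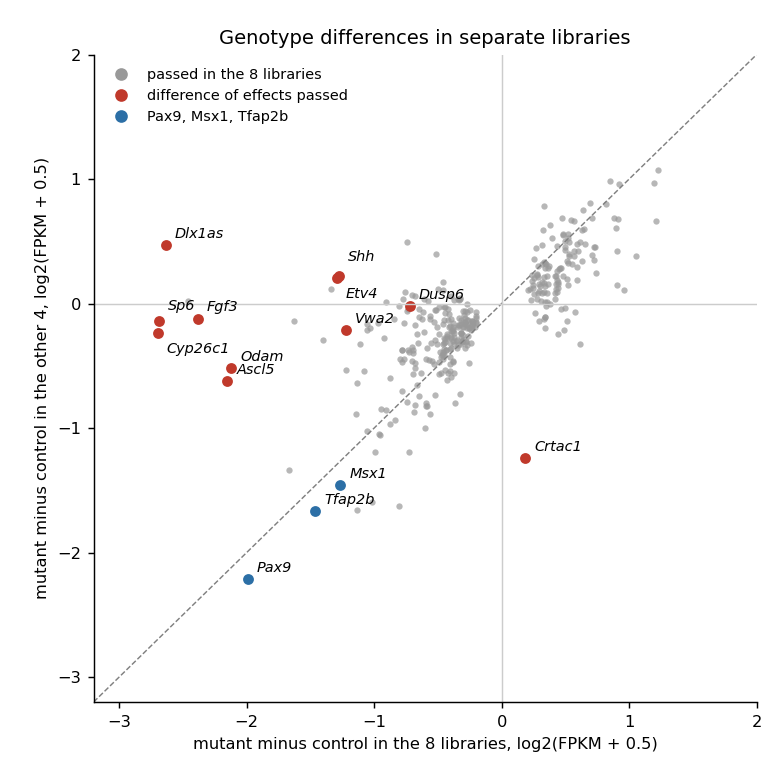
Mutant minus control on the log2(FPKM + 0.5) scale in the 8 libraries (horizontal axis) and in the other 4 (vertical axis) for the genes that passed in the 8 (grey), for the 11 whose difference of effects passed (red) and for Pax9, Msx1 and Tfap2b (blue); the dashed line marks equal effects. Pax9, Msx1 and Tfap2b lie near the line, 10 of the red genes lie above it at the left, and Crtac1 lies below it.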

How the data were processed

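The deposited table holds FPKM values made by the authors for 19083 genes. Per the submitters' processing notes, build mm10, DESeq2 and Novoalign 2.08.03 were used, with no role or order given. The annotation, counting tool and strand setting are not given in the sources used. Values of 99.99% of genes came out as whole multiples of 1 read within 0.01 read, which gave the depth. Between replicates of a group among the 8 libraries, chi-square per degree of freedom was 4.38 to 34.7, so none was a copy of its replicate. Other pairs of libraries were not compared in this way.

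Genes with at least 1 FPKM in 3 of the 8 libraries were kept (13868). log2(FPKM + 0.5) was fitted with limma 3.58.1 in R 4.3.3 (empirical Bayes with a trend). The title number was a fixed block, which also removes treatment, and p-values were two-sided and adjusted by the Benjamini-Hochberg method over all genes kept. Effects within a title number and their difference came from a fit of 4 group means. The difference from the other 4 libraries came from a genotype by prefix interaction over 12 libraries. Symbols were matched for 18752 identifiers, and positions are from GENCODE on mm10. Summed levels of a list were taken over all its genes with deposited values, tested or not. The fit was tested on simulated data.

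The genes named in the main comparison are the 15 largest rises and falls that passed, with an established symbol and no overlap of genotypes, with Pax9, Shh, Ascl5 and Msx1 always included. Within a title number they are the 5 largest rises and falls. For the difference from the other 4 libraries they are the 10 with the smallest p, and the last of the 11 calls was added after its values were seen. Listed genes that passed are named with their list, and unlisted ones beside a relative were chosen after their values were seen. The comparison, its members and the lists were chosen with earlier results of these data known. Alternatives were pseudocounts, filters, median-ratio scaling, no trend, no block, all 12 libraries and leaving out each library. Limma voom on recovered reads and a Ddx3y covariate were added after the data were seen. A term for heterozygous controls was not fitted in the 8 libraries. Some genes are not reported here.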

Additional observations from a re-analysis of the deposited data

Results flagged for a closer look

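In 11 genes the difference between mutants and controls was itself different in the 8 libraries and in the other 4, by the interaction test over 12 libraries. The effect in the 8 libraries minus that in the other 4, on the log2(FPKM + 0.5) scale, was -3.10 for Dlx1as, -2.55 for Sp6, -2.46 for Cyp26c1, -2.26 for Fgf3 and -1.61 for Odam. It was -1.53 for Ascl5, -1.50 for Etv4, -1.50 for Shh, -1.01 for Vwa2, -0.70 for Dusp6 and 1.42 for Crtac1. The levels behind these values are given with the comparison above.

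A library lay far from the other 3 of its genotype in 3 of 62 groups of 4 libraries tested, and chance flags about 1 in 20 groups. Cyp26c1 was at 0.360 FPKM in WAY mutant 3 and at 0.550 to 0.561 in the other mutants, a gap of 0.951 of the whole range. Fgf3 was at 0.0782 FPKM in untreated mutant 3 and at 0.0324 to 0.0367 in the other mutants (0.904), on 8 reads against 3 or 4. Zfp385c was at 3.40 FPKM in WAY control 2 and at 2.51 to 2.65 in the other controls (0.8291).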

How the results depend on the processing

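The count of 359 genes was 357 and 362 with pseudocounts of 0.1 and 1, 420 without a filter, 350 without a trend, 333 with median-ratio scaling (145 higher, 188 lower) and 440 with voom. Without the replicate block of title numbers it was 309. It was 231 with a filter at 5 FPKM (fewer genes tested), 903 with all 12 libraries (304 shared with the 359) and 184 with the Ddx3y covariate. Leaving out 1 library gave 130 to 379. Within untreated embryos the count of 53 was 101 with voom and 11 to 111 without 1 library. Within treated embryos the 295 were 454 with voom and 18 to 4522 without 1 library, and the 0 genes that differed between them were 0 to 1713. The 11 genes that differed from the other 4 libraries were 3 to 8. The cause was not tested. Median-ratio scaling moved the median difference of all genes from -0.026 to 0.0055.

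Of 541 pairs of a named gene and an alternative, 495 kept the call, 46 lost it and 0 changed direction, and 18 of 31 genes lost it in none. With all 12 libraries Shh had -0.78 (adjusted p = 0.07). The block rests on title numbers, which also carry treatment. Depth limits Odam, Fgf3 and Ascl5, with few reads in mutants.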

Other observations

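The 6 genes of stratified epithelium given first were picked after their values were seen, from those that had passed, and stand for no list. Krt1 and Krt10, keratins of suprabasal cells, had differences of -1.22 ± 0.10 (adjusted p = 0.000756) and -0.77 ± 0.10 (adjusted p = 0.00806) on the log2(FPKM + 0.5) scale. Krt1 was at 1.31 to 1.62 FPKM in mutants and at 3.45 to 4.63 in controls, without overlap. Ly6d (-1.08, adjusted p = 0.0252), Krt16 (-1.05, adjusted p = 0.0373), Krtdap (-0.80, adjusted p = 0.0359) and Lgals7 (-0.66, adjusted p = 0.0088) fell too, with overlap between the genotypes in Krtdap alone of these 6 genes. In Ly6d the treated controls, at 16.3 and 14.5 FPKM, stood above the untreated ones, at 6.19 and 10.3, while mutants of both kinds lay at 4.23 to 5.31. Treatment, title number and embryo sex cannot be told apart among these controls. Upk3a, a gene best known as a uroplakin of the bladder lining, had 3.43 to 4.34 FPKM in mutants and 6.73 to 10.6 in controls (-1.14 ± 0.14, adjusted p = 0.00532).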
